A study of Mus musculus with 22 samples.

Results

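The genes described here encode the structural proteins of the extracellular matrix: the collagen and laminin chains, the lysyl oxidases, the fibrillins and fibulins, and fibronectin. They were taken by gene symbol from the table of normalized counts, which held 40 such genes among 11208. One of the 40, Col4a3bp, matched by its symbol only, since it encodes a ceramide transfer protein and no matrix protein; it is counted with the others and named where it changed. Of the other 39, 25 encode collagen chains, 5 laminin chains, 4 lysyl oxidases, 4 fibrillins or fibulins, and 1 fibronectin. In the GENCODE M21 annotation 69 symbols match the same rule, and those outside the table, elastin among them, were not analysed here.

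Collagen chains assemble in threes into triple helices, which are modified in the endoplasmic reticulum, secreted and trimmed. Fibrillar collagens then align into fibrils that lysyl oxidases cross-link, while network-forming collagen IV and laminin trimers build basement membranes. Fibroblasts are the main makers of this matrix in connective tissue, and fibronectin, fibrillins and fibulins guide the assembly of fibrils and elastic fibres.

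RNA was measured in NIH/3T3 cells, an immortal mouse embryonic fibroblast line. The cells carried a stably integrated doxycycline-inducible construct for E2F1, a transcription factor of cell cycle entry (the E2F1 line), or the empty vector (the EV line). Every group was first held for 48 h in medium with 0.25% serum. The E2F1 line then received 500 ng/ml doxycycline and was collected at 0, 2, 6 and 12 h. The EV line received the same doxycycline, at the same times, or 10% serum, collected at 2, 6 and 12 h, and its 0 h libraries are used here as the start of both series. The authors' deposited serum tables name a serum 0 h group, and the labels give no separate libraries for it among those analysed here. These 11 groups held 2 libraries each, 22 in all. Whether a line was 1 clone or a pool is not stated in the labels used here, and neither is whether the replicates were separate cultures, so p-values measure only the spread between these libraries.

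Library totals ran from 34014608 to 46057140 normalized counts, the highest being the 2 libraries of 2 h serum, and the lowest gene mean was 99.6. All 8 fibroblast markers sought were in the table, against 0 of 6 epithelial, 0 of 5 endothelial and 0 of 5 adipocyte markers, 1 of 5 of macrophages, 1 of 6 of chondrocytes and 1 of 5 of skeletal muscle. The macrophage marker stood at 154 to 229 in the EV line at 0 h and 595 to 642 at 2 h of serum, and the skeletal muscle marker at 0 to 2 and 384 to 484. The chondrocyte marker went from 6689 to 7152 up to 14813 to 16561 at 2 h of serum, and in the E2F1 line from 7364 to 8071 at 0 h down to 4142 to 4224 at 12 h. The part of these markers in the results was not tested. The summed level of the fibroblast markers was 197151 to 213839 in the E2F1 line at 0 h and 139966 to 147655 at 12 h of doxycycline. In the EV line it was 254962 to 269510 at 0 h and 146132 to 152557 at 12 h of serum, and its part in the results was not tested. Gene by gene, by limma at adjusted p under 0.05, 1 of the 8 rose and 6 fell at 12 h of E2F1 (31.8% and 29.7% of all genes). With serum 2 rose and 2 fell at 2 h (37.5% and 33.5% of all genes), and 1 rose and 3 fell at 12 h (36% and 29.7%). The median log2 changes of the 8 were -0.42, 0.02 and -0.23. At 2 h the sum was 169918 to 172911 with E2F1, 191432 to 205084 with doxycycline in the EV line and 207802 to 215184 with serum. In bulk RNA, fewer cells of a kind and less RNA per cell cannot be told apart. E2f1 itself counted 1703 and 1637 in the untreated E2F1 line, 1535 to 1755 at 2 h of doxycycline (-0.02, adjusted p 0.946), 3806 and 3602 at 6 h and 2683 to 2845 at 12 h. With serum it counted 740 to 802 at 2 h, 956 to 1186 at 6 h and 4247 to 4615 at 12 h, the last above the E2F1 line at 12 h. The libraries taken at 2 h stood apart. For 12 genes set at least 4-fold higher in every E2F1 library than in every EV doxycycline library outside 2 h, the mean log2 value was 8.99 to 9.56 in the 4 E2F1 groups. In the EV line it was 4.89 at 0 h, but 6.99 after 2 h of doxycycline and 7.23 after 2 h of serum. For these genes the EV libraries of 2 h therefore lay between the lines, and matrix genes that differ between the lines are read there with a second comparison, serum against doxycycline at the same 2 h.

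Promoters are shown for 4 genes whose transcripts moved most distinctly in the comparisons that follow: Col3a1, lowest after serum; Col5a3, high early and low late after serum and lower under E2F1; Col27a1, the brief peak after serum; and Lamb2, the rise under E2F1. The sequences are from RefSeq on GRCm38.p6, 5′ to 3′ on the gene's strand and end at the base before the RefSeq start, with motif matches in capitals. Bases inside any exon of the GENCODE M21 annotation were left out, so the Lamb2 stretch ends 126 bases before the RefSeq start. The Col27a1 stretch lies outside all annotated exons but downstream of a more distant start in GENCODE. Col3a1 is at chr1:45311288-45311537 (plus), Col5a3 at chr9:20815068-20815317 (minus), Col27a1 at chr4:63215162-63215411 (plus) and Lamb2 at chr9:108479612-108479735 (plus).
Col3a1: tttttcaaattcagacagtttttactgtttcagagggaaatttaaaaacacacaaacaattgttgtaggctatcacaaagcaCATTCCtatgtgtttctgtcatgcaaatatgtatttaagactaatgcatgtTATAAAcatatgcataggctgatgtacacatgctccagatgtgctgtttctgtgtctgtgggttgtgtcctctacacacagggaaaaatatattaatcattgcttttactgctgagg
Col5a3: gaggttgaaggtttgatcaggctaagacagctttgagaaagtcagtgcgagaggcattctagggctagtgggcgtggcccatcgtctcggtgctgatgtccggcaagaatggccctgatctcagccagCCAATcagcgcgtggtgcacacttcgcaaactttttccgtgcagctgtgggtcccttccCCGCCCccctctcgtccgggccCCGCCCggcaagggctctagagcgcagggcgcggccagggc
Col27a1: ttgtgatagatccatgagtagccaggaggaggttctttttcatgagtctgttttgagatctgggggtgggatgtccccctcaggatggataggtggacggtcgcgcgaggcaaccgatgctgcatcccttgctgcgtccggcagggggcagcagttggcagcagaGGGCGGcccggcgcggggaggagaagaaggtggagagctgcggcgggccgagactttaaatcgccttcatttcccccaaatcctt
Lamb2: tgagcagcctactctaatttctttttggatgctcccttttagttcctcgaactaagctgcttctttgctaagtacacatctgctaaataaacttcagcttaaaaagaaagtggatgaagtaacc
In Col3a1 the capitals mark a TEAD site (GGAATG on the strand opposite to the printed one, which reads CATTCC) and a TATA box (TATAAA). In Col5a3 they mark a CCAAT box and GC boxes (GGGCGG on the strand opposite to the printed one, which reads CCGCCC), and in Col27a1 a GC box. The Lamb2 window held no match. Windows of 250 bases before the start were searched on both strands for 28 of the 40 genes and for 32851 promoters in all. GC boxes occurred in 19 of the 28 and in 32.7% of all promoters, CCAAT in 12 and in 33.8%. An E2F site (TTTCCCGC, TTTGGCGC, TTTCGCGC or TTTGCCGC) was found in 1 of the 28, Col17a1, and in 1.86% of all promoters. The AP-1 site (TGANTCA) was found in Col6a1 and in 6.75% of all, and the CArG box of serum response factor in Lama2 and in 1.47% of all. GGAATG occurred in Col20a1 and Col3a1 and in 12.6% of all, and TATAAA in Col11a2, Col17a1 and Col3a1 and in 12.4% of all. These are matches of letters, not measured binding sites.

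At rest the matrix genes spanned a very wide range. Per kilobase of exon, in the E2F1 line at 0 h, Col1a1 had the highest level at 28310 normalized counts, next to Fn1 at 27510, and the ranges of these 2 over their libraries overlapped. Col1a2 (20380), Col6a1 (19980) and Lox (18370), the main lysyl oxidase, followed, and then Col3a1 (14000), the second fibrillar chain of soft tissues. At the other end stood Col7a1 (11.2), the anchoring fibril collagen, and Fbn2 (8.29), the fibrillin of early development. The same 6 genes led in the EV line, with Fn1 at 25540 and Col1a1 at 27840 per kilobase. All 40 genes together took 4.22% and 4.25% of the counts in the E2F1 line at 0 h and 4.68% and 4.19% in the EV line.

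The lines already differed before treatment in 11 of the 40 genes, 7 higher and 4 lower in the E2F1 line; 15% of all genes passed the same test (limma, adjusted p under 0.05), 8.86% higher and 6.17% lower. Col22a1, a collagen of tissue junctions, stood at 781 and 804 in the E2F1 line and at 116 and 142 in the EV line, a log2 difference of 2.62 (adjusted p 0.000174). Lama2, the laminin α2 chain of muscle, stood at 583 and 587 against 137 and 96 (2.34, adjusted p 0.000343). Both genes had every E2F1 library far above every EV library. Col18a1 (1.38) and Col11a1 (1.35) were also higher in the E2F1 line, and Col4a6 (0.46), Lamc1 (0.41) and Col6a3 (0.33) by less. Col5a3, the third chain of collagen V, stood at 1661 and 1368 in the E2F1 line and at 4666 and 3881 in the EV line (-1.50, adjusted p 2.45e-05). Fbln5 (-0.51), Loxl1 (-0.46) and Col8a1 (-0.46) were lower too. Without E2F1 0 h replicate 2 the count was 6, and Col4a6 (0.37), Lamc1 (0.36), Col6a3 (0.23), Loxl1 (-0.36) and Col8a1 (-0.42) did not pass. Some of these smaller differences were also lost without EV 0 h replicate 1 (Loxl1 -0.28, Col6a3 0.32), EV 0 h replicate 2 (Col4a6 0.33, Lamc1 0.31, Col8a1 -0.40) or E2F1 0 h replicate 1 (Col8a1 -0.51).

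What E2F1 did to resting cells was the first question. After 2 h of doxycycline, when E2f1 RNA was not raised (-0.02), none of the 40 genes passed in the E2F1 line, where 1.86% of all genes did, 0.865% higher and 0.99% lower. By limma at an unadjusted p under 0.05 the count was 9, but the share over all genes at that level was not counted, so it has nothing to be read against. At 6 h 3 genes were higher and 14 lower, beside 51.7% of all genes called in either direction, 28.8% higher and 22.9% lower. At 12 h 1 gene was higher and 31 were lower, beside 61.5% of all genes, 31.8% higher and 29.7% lower. The median log2 change of the 40 was -0.32 at 6 h and -0.67 at 12 h, against -0.03 and -0.02 over all genes. In each of the 31 falls both 12 h libraries lay below both 0 h libraries. Such separation was common without a call: it held for 5 of the 8 genes not called at 12 h. It also held for 23 of the 40 between 2 h and 0 h. The share over all genes was not counted. At 6 h the falls were led by Col11a1 (-1.18, adjusted p 0.000191), Col7a1 (-0.99) and Col17a1 (-0.78), and Loxl3 (-0.68), Col5a3 (-0.58), Col6a3 (-0.53), Col3a1 (-0.47) and Lamb1 (-0.44) were among them. The 6 h calls of Col7a1, Col17a1, Col5a3 and Col3a1 were each lost in at least 1 fit without a library, and the 6 h count was 10 without E2F1 6 h replicate 1 or E2F1 0 h replicate 2 and 11 without E2F1 6 h replicate 2. Without E2F1 0 h replicate 1 Col3a1 had -0.32, Col5a3 -0.44 and Col7a1 -0.96; without E2F1 0 h replicate 2 Col17a1 had -0.54 and Col7a1 -1.02; without E2F1 6 h replicate 1 Col3a1 had -0.55 and Col17a1 -0.64; and without E2F1 6 h replicate 2 Col3a1 had -0.39, Col5a3 -0.35 and Col7a1 -0.67. The share of the 40 genes in all counts went from 4.22% and 4.25% at 0 h to 3.40% and 3.38% at 6 h and 2.59% and 2.65% at 12 h. Most falls were under 2-fold: 6 of the 31 reached 2-fold. The map of changes shows the column of 12 h E2F1 values as low over nearly its whole length.

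**Figure D1:**
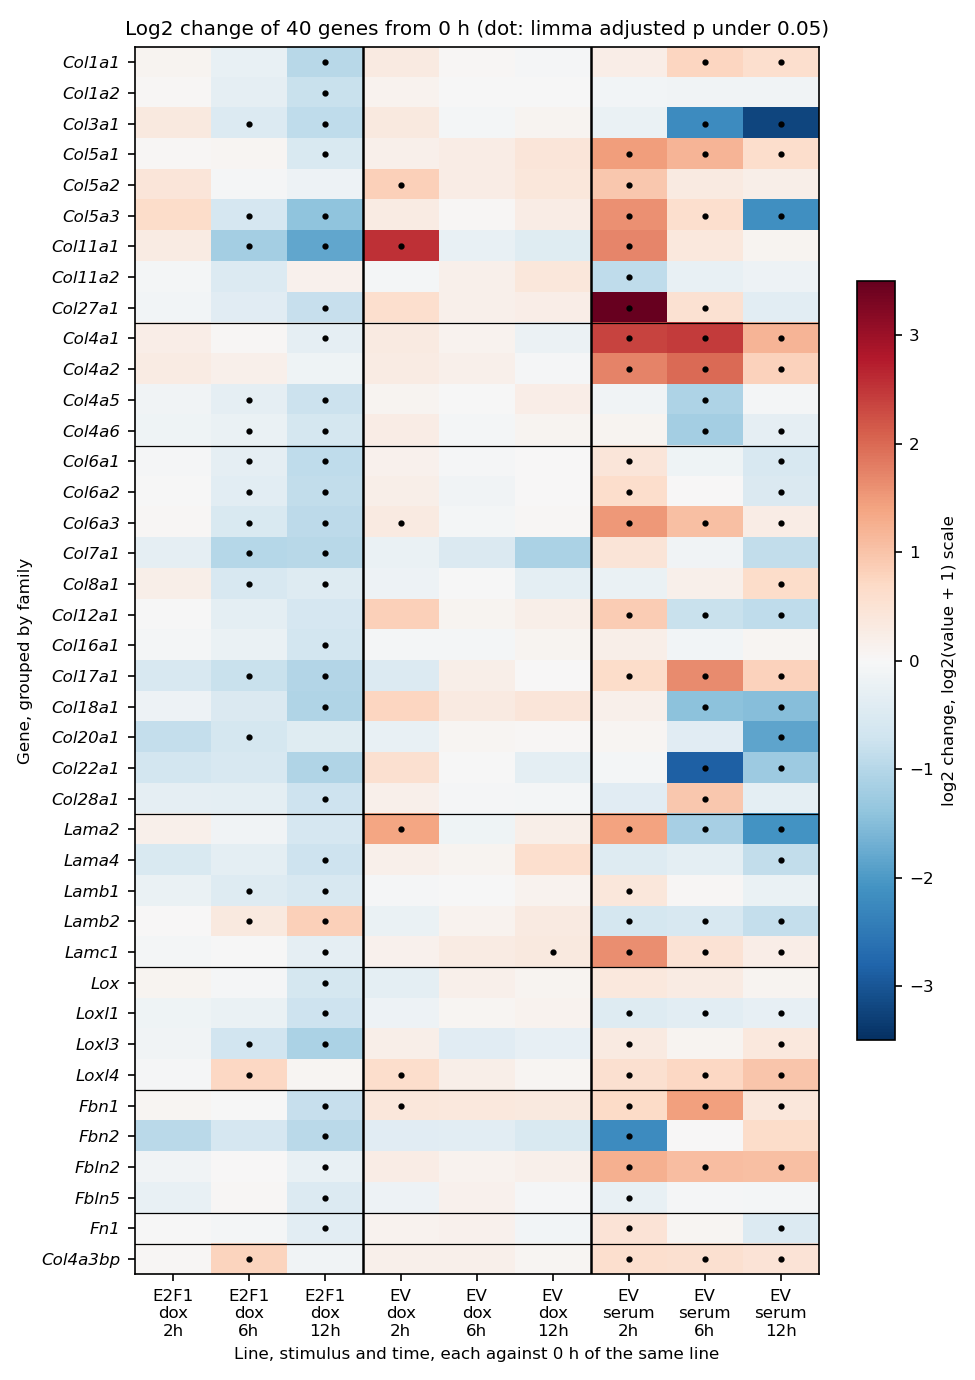
Log2 change from 0 h of each of the 40 genes (rows, grouped by family) in the 9 later groups (columns; blue lower, red higher; a dot marks limma adjusted p under 0.05). With E2F1 at 12 h 31 of 40 genes were lower, while serum gave both directions at every time.

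Among the fibrillar collagens, 7 of 9 fell at 12 h of E2F1 and 0 rose. Col1a1, the α1 chain of collagen I, stood at 196151 and 175500 at 0 h, at 162364 and 146914 at 6 h and at 91191 and 99808 at 12 h. Both 12 h libraries were far below every earlier library of the line, a log2 change of -0.96 (SE 0.178, adjusted p 0.000146). Its partner Col1a2 went from 252738 and 253690 to 142451 and 150822 (-0.79, adjusted p 0.00011), and Col3a1 from 152066 and 122877 to 69039 and 79913 (-0.88, adjusted p 0.000628). The 3 most abundant fibrillar chains thus fell by similar amounts, and the Col3a1 to Col1a1 ratio within a library was 0.775 and 0.700 at 0 h and 0.757 and 0.801 at 12 h. The largest falls were in less abundant chains. Col11a1, a chain that sets fibril diameter in cartilage, went from 609 and 539 to 255 and 249 at 6 h and 176 and 150 at 12 h (-1.81, adjusted p 1.11e-06). Col5a3 went from 1661 and 1368 to 517 and 618 (-1.41, adjusted p 9.14e-07). Each step left the libraries of the 3 times without overlap in both genes. Col27a1 (-0.81) and Col5a1 (-0.54) fell as well, the latter not passing without E2F1 12 h replicate 1 or E2F1 0 h replicate 2 (-0.44 in both), and Col5a2 (-0.18, adjusted p 0.39) and Col11a2 (0.16, adjusted p 0.627) did not pass.

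Of the 4 collagen IV chains, 3 fell at 12 h. Col4a5 and Col4a6, neighbours on chromosome X that are read in opposite directions with 1308 bases between them, fell by 0.75 and 0.60 on the log2 scale. Their neighbouring counterparts on chromosome 8, Col4a1 and Col4a2, the ubiquitous basement membrane pair, changed less. Col4a1 had 13308 and 13731 at 0 h and 11221 and 10491 at 12 h (-0.32, adjusted p 0.0279), and Col4a2 had 10600 and 10889 and then 9731 and 9679 (-0.15, adjusted p 0.2). The Col4a1 fall did not pass without E2F1 0 h replicate 1 (-0.34), E2F1 0 h replicate 2 (-0.29) or E2F1 12 h replicate 2 (-0.27).

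Of the 12 other collagens 10 fell. The 3 chains of collagen VI, the beaded filament collagen, fell together: Col6a1 from 84139 and 90929 to 43483 and 51208 (-0.89), Col6a2 by 0.87 and Col6a3 by 0.93 on the log2 scale, with adjusted p of 1.62e-06, 3.91e-06 and 1.96e-08. The Col6a1 to Col6a2 ratio stayed between 1.41 and 1.72 in all 22 libraries. Col22a1 (-1.05), Col18a1 (-1.04), Col17a1 (-1.02), Col7a1 (-0.97), Col28a1 (-0.71), Col16a1 (-0.63) and Col8a1 (-0.44) also fell. For Col22a1, Col7a1, Col28a1 and Col8a1 the difference from the EV line's doxycycline change, tested below, did not pass. Col18a1, the basement membrane collagen that yields endostatin, rested on 1 library: it had 218 and 439 at 12 h against 597 and 681 at 0 h, and without E2F1 12 h replicate 1 its change was -0.54 and did not pass. Col22a1 (-1.01 to -1.10) and Col7a1 (-0.76 to -1.19) passed in none of the 4 fits without 1 library. Col28a1 did not pass without E2F1 12 h replicate 1 (-0.79), E2F1 0 h replicate 2 (-0.56) or E2F1 12 h replicate 2 (-0.64).

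The laminins held the single rise. Lamb2, the laminin β2 chain of synapses, vessels and kidney, stood at 9206 and 9932 at 0 h, 10019 and 9164 at 2 h, 12006 and 12031 at 6 h and 16611 and 17816 at 12 h. The libraries of 6 h lay above both earlier times and those of 12 h above all others, with log2 changes of 0.33 (SE 0.0964, adjusted p 0.00832) and 0.85 (SE 0.0964, adjusted p 6.16e-07). The 6 h call did not pass under quantile normalization (0.14) or equal totals (0.21), nor without E2F1 0 h replicate 1 (0.28). The EV line, 12 h into doxycycline, had Lamb2 at 12472 and 12254, above both of its 0 h libraries but below both E2F1 libraries. Its alternative chain Lamb1, the β1 chain of most laminins, went the other way, from 14299 and 14202 to 9773 and 9701 (-0.55, adjusted p 0.00013). The Lamb2 to Lamb1 ratio within a library therefore moved from 0.644 and 0.699 at 0 h to 1.06 and 1.23 at 6 h and 1.70 and 1.84 at 12 h. Lama4 (-0.74) and Lamc1 (-0.32) fell, Lamc1 not passing without E2F1 0 h replicate 2 (-0.28) or E2F1 12 h replicate 2 (-0.27), and Lama2 had -0.58 (adjusted p 0.168).

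Of the lysyl oxidases, Loxl3 went from 5216 and 5050 to 2254 and 2492 (-1.11, adjusted p 5.63e-07), Loxl1 from 26356 and 23068 to 14261 and 15882 (-0.71, adjusted p 2.73e-05), and Lox from 85271 and 90313 to 59084 and 54719 (-0.63, adjusted p 0.021). Lox passed in none of the 4 fits without 1 library (-0.57 to -0.68). Loxl3 shares 535 exonic bases with Htra2 on the other strand, and use of strand is not given in the sources used here, so its counts are uncertain to that extent. Loxl4 rose at 6 h only among the times tested, from 699 and 625 to 1018 and 1175 (0.73, adjusted p 0.000479), and was back at 688 and 697 at 12 h. All 4 elastic fibre glycoproteins fell at 12 h: Fbn1, the main microfibril protein, from 7566 and 9442 to 4778 and 4887 (-0.81), Fbn2 by 0.94, Fbln5 by 0.47 and Fbln2 by 0.27 on the log2 scale. Fbn1 overlaps Gm9913 on the other strand over 2442 exonic bases. Fn1, the fibronectin gene, went from 299679 and 343129 to 253546 and 239570 (-0.38, adjusted p 0.0187). Under quantile normalization, which gives the same top value in every library, Fn1 had 0.00 and Col1a2 -0.15, and neither passed. Fbn2 passed in none of the 4 fits without 1 library (-0.91 to -0.98). Fbln2 did not pass without E2F1 0 h replicate 1 (-0.29), E2F1 12 h replicate 1 (-0.20) or E2F1 0 h replicate 2 (-0.25), nor Fn1 without E2F1 0 h replicate 2 (-0.28) or E2F1 12 h replicate 2 (-0.34). Col4a3bp rose by 0.78 at 6 h (adjusted p 3.16e-06), and its 12 h value was -0.13 (adjusted p 0.265).

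**Figure D2:**
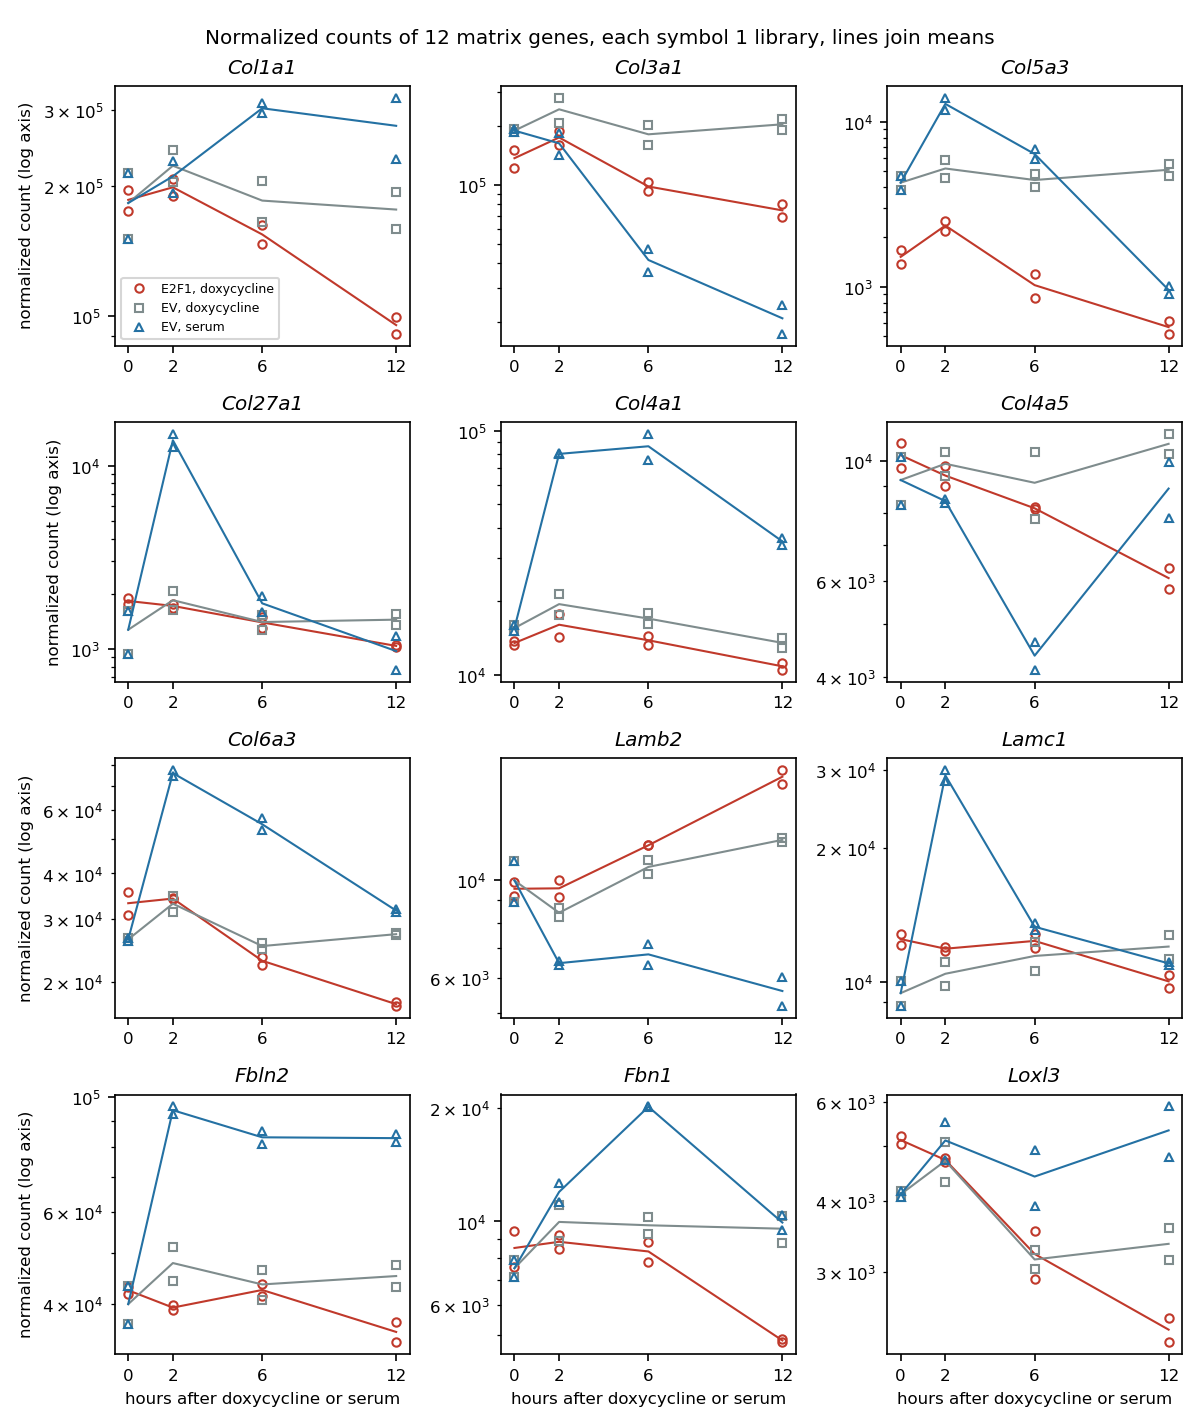
Normalized counts (log axis) of selected genes against hours of treatment; each point is 1 library and lines join group means for the E2F1 line with doxycycline, the EV line with doxycycline and the EV line with serum. Lamb2 is highest after 12 h of E2F1 (16611 and 17816), Col27a1 peaks at 2 h of serum, and Col3a1 drops after 6 and 12 h of serum.

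The EV line given the same drug measured what doxycycline and further time in 0.25% serum did. It had 6 of 40 genes higher and 0 lower at 2 h, when 7.35% of all genes were called (4.93% higher, 2.43% lower). At 6 h it had 0 called (0.134% of all genes, 0.134% higher and 0% lower), and at 12 h 1 higher (4.17% of all genes, 0.749% higher and 3.42% lower). At an unadjusted p under 0.05 limma gave 3 at 6 h, again without a share over all genes at that level. The 2 h rises were Col11a1 (2.56), Lama2 (1.37), Col5a2 (0.84), Loxl4 (0.61), Fbn1 (0.40) and Col6a3 (0.33). Col11a1 stood at 278 and 180 at 0 h, 1244 and 1400 at 2 h and 220 and 158 at 6 h, so that its 2 h libraries were above every other library of the study. The 2 h libraries are those that stood apart, and Col11a1, Lama2 and Col6a3 are genes that differ between the lines at 0 h; the part of this in the 2 h rises was not tested. Without EV 2 h replicate 2 the count was 1, Col11a1, and Lama2 had 1.16, Col5a2 0.67, Loxl4 0.60, Fbn1 0.24 and Col6a3 0.25. Without EV 0 h replicate 2 it was 3. Loxl4 had 0.46 without EV 0 h replicate 1 and 0.62 without EV 2 h replicate 1, and Lama2 1.58 without the latter; none of these passed. The 12 h call, Lamc1 (0.35, adjusted p 0.0355), did not pass without EV 0 h replicate 2 or EV 12 h replicate 1, and the count was 3 without EV 0 h replicate 1.

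The difference between the lines was tested by subtracting the EV line's doxycycline change from the E2F1 line's. After 12 h, 23 genes had a lower and 1 a higher change in the E2F1 line, beside 50.5% of all genes (27.3% higher and 23.3% lower), with a median of -0.73 against -0.02 over all genes. Col5a3 (-1.67, SE 0.235, adjusted p 1.21e-05), Col18a1 (-1.47), Col11a1 (-1.39), Lama4 (-1.33) and Fbn1 (-1.15) had the largest differences, of which Col18a1 did not pass without E2F1 12 h replicate 1 (-0.97), and Lamb2 the single positive one (0.53, SE 0.136, adjusted p 0.0033). For collagen I the differences were -0.92 for Col1a1 and -0.79 for Col1a2 (adjusted p 0.00521 and 0.0033). Under quantile normalization Col1a2 had -0.21 and did not pass. Fn1 (-0.28, 95% interval -0.669 to 0.117) and Col4a1 (-0.12, -0.47 to 0.239) did not pass. Nor did Col7a1, Col8a1, Col22a1, Col28a1, Fbn2 and Lox, although each was called lower at 12 h of E2F1 against 0 h. In the EV line Col7a1 went from 108 to 172 at 0 h down to 47 to 83 at 12 h. Col8a1 went from 4479 to 4867 down to 3575 to 3728, and Fbn2 from 141 to 168 down to 98 to 116. The EV libraries of these times overlapped for Col22a1 and Col28a1, and those of Lox were higher at 12 h. At 6 h 1 gene was higher, Col4a3bp, and 6 were lower, beside 34.5% of all genes (22.2% higher, 12.3% lower). That count ran from 3, without E2F1 6 h replicate 2 or EV 6 h replicate 1, to 11, without EV 0 h replicate 1; it was 4 without EV 0 h replicate 2.

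Serum, the full growth signal, gave another pattern. At 2 h 21 genes were higher and 5 lower, beside 70.9% of all genes called (37.5% higher, 33.5% lower). At 6 h 14 were higher and 9 lower (67.5% of all genes, 36.5% higher and 31% lower), and at 12 h 13 were higher and 14 lower (65.7% of all genes, 36% higher and 29.7% lower). As shares of the 40, the calls were 52.5% higher and 12.5% lower, 35% and 22.5%, and 32.5% and 35%. The split of the 40 moved with scaling, but the shares over all genes under the other scalings were not counted. The rescaled splits that follow therefore have nothing to be read against. With equal totals, under which the median of all genes moved by -0.37 (2 h) and -0.21 (6 h), the splits were 12 higher and 12 lower, 12 and 15, and 11 and 15; quantile normalization gave 15 and 10, 13 and 13, and 11 and 13. Against the EV doxycycline libraries of the same hour, serum had 16 higher and 7 lower at 2 h (67.1% of all genes, 35% higher and 32.1% lower). It had 15 higher and 9 lower at 6 h (65.8% of all genes, 35.8% and 30%) and 12 higher and 16 lower at 12 h (70.4% of all genes, 37.9% and 32.5%). With equal totals these were 9 and 17, 9 and 16, and 10 and 19, and under quantile normalization 12 and 13, 12 and 13, and 11 and 16. In what follows, log2 changes are against EV 0 h unless said otherwise. Genes of contractile fibroblasts moved in the same libraries: the sum of Acta2 and Actg2, the 2 of 5 smooth muscle or myofibroblast markers in the table, was 6759 to 8046 at EV 0 h and 56744 to 63881, 66855 to 68509 and 50806 to 53395 at 2, 6 and 12 h of serum. The EV doxycycline libraries of 2 h had 17381 to 17753. Its part in the results was not tested.

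Collagen I and collagen III parted under serum. Col3a1 stood at 193386 and 186691 in the EV line at 0 h, 142180 and 185112 at 2 h, 47215 and 35990 at 6 h and 17487 and 24458 at 12 h. The libraries of 6 and 12 h lay below all others without overlap, with log2 changes of -2.21 (SE 0.191, adjusted p 1.24e-08) and -3.20 (SE 0.191, adjusted p 2.62e-10). Col1a1 stood at 214313 and 151171 at 0 h, 310568 and 294202 at 6 h and 231241 and 319694 at 12 h, higher by 0.75 (adjusted p 0.00121) and 0.60 (adjusted p 0.00708). Without EV 0 h replicate 2 the 6 h rise was 0.50. The 12 h rise did not pass without EV 0 h replicate 2 (0.34) or without serum 12 h replicate 2 (0.36). Col1a2 had -0.10, -0.14 and -0.13, with adjusted p of 0.561, 0.409 and 0.424. The Col3a1 to Col1a1 ratio, which no library scaling touches, went from 0.902 and 1.23 at 0 h to 0.152 and 0.122 at 6 h and 0.0756 and 0.0765 at 12 h. The Col1a1 to Col1a2 ratio went from 0.712 and 0.583 to 1.2 and 1.18 at 6 h and 1.05 and 1.08 at 12 h. The neighbour of Col3a1 on chromosome 1, Col5a2, which lies tail to tail with 24614 bases between, had 0.31 and 0.20 at the same times (adjusted p 0.136 and 0.331).

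The collagen V chains also parted. Col5a1 rose at each time, by 1.46, 1.19 and 0.61, the last 0.92 without serum 12 h replicate 1 and not passing without serum 12 h replicate 2 (0.30). Its serum libraries of 12 h, at 31501 to 48551, overlapped those of 12 h doxycycline, at 32430 to 36517. Col5a3 went from 4666 and 3881 at 0 h to 11715 and 13990 at 2 h, 6840 and 5912 at 6 h and 897 and 1011 at 12 h. It was thus high at 2 h and below every earlier library at 12 h. The log2 changes were 1.59 (adjusted p 1e-07), 0.58 (adjusted p 0.00503) and -2.16 (SE 0.166, adjusted p 4.18e-09). Against the 2 h doxycycline libraries the 2 h value was 1.31 (adjusted p 1.53e-06). The 6 h value did not pass under equal totals (0.37) or quantile normalization (0.29), nor without EV 0 h replicate 2 (0.45) or serum 6 h replicate 1 (0.47). The Col5a3 to Col5a1 ratio was 0.177 and 0.156 at 0 h and 0.0285 and 0.0208 at 12 h. Col27a1, a fibrillar collagen of cartilage, made a short peak: 1612 and 936 at 0 h, 14858 and 12598 at 2 h, 1955 and 1593 at 6 h and 1180 and 769 at 12 h. Its 2 h libraries lay several-fold above every other library of the study, at 3.48 (SE 0.21, adjusted p 6.4e-11). Against the EV doxycycline libraries of 2 h, at 2063 and 1627, the difference was 2.90 (adjusted p 1.01e-09). Col11a1 rose against 0 h (1.71) but was lower than after 2 h of doxycycline (-0.85, adjusted p 0.00208).

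**Figure D3:**
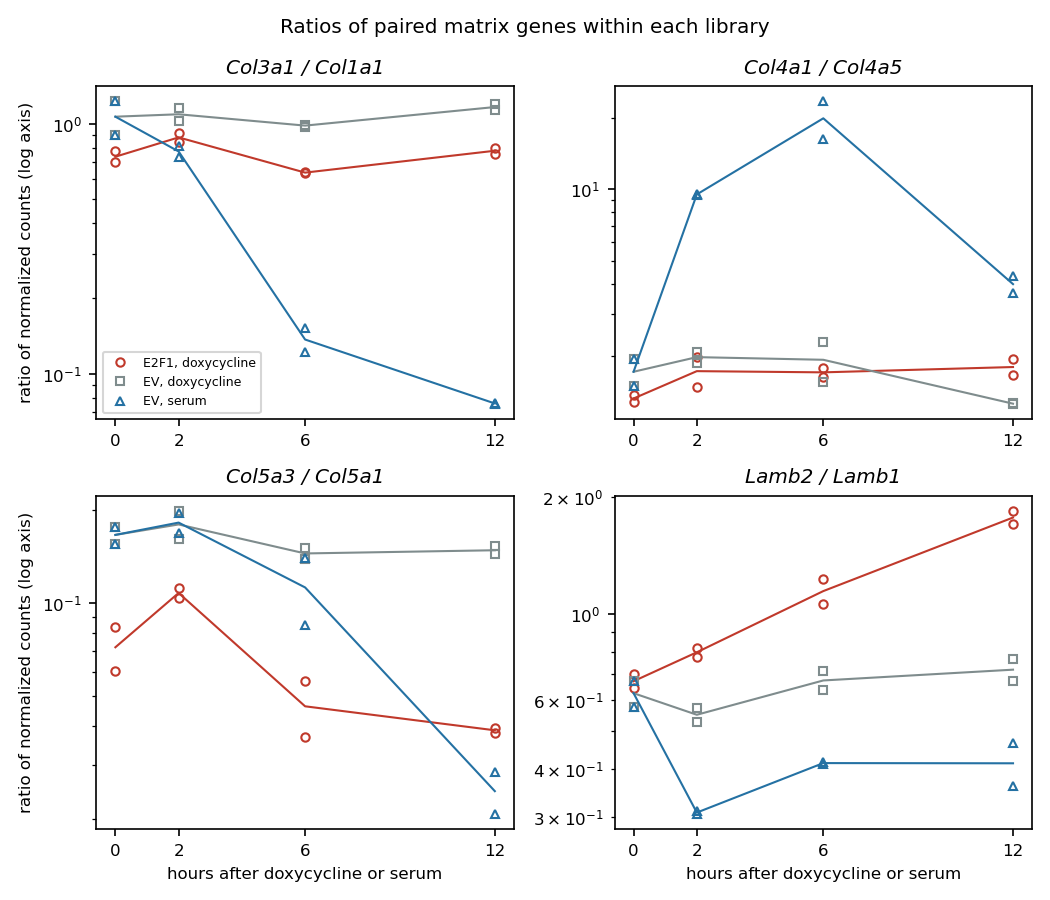
Ratios of normalized counts between chains within a library (log axis) against hours of treatment, 1 point per library. The Col3a1 to Col1a1 ratio falls to 0.0756 and 0.0765 after 12 h of serum, and the Lamb2 to Lamb1 ratio reaches 1.70 and 1.84 after 12 h of E2F1.

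The collagen IV genes moved pair by pair. Col4a1 went from 15089 and 16032 at 0 h to 79946 and 80613 at 2 h, 75667 and 96850 at 6 h and 34059 and 36358 at 12 h. Every serum library was above every other library of the study, with log2 changes of 2.37, 2.46 and 1.18 (SE 0.119, adjusted p 6.23e-12, 1.04e-11 and 1.24e-07). Col4a2, whose start lies 21 bases from that of Col4a1 on the opposite strand, rose by 1.73, 1.98 and 0.82. The first exons of these 2 genes overlap by 22 bases, so a few reads could be counted to either. The pair on chromosome X fell at 6 h, Col4a5 from 10153 and 8293 to 4628 and 4113 (-1.07, adjusted p 8.35e-07) and Col4a6 from 4445 and 3693 to 1865 and 1697 (-1.19, adjusted p 5.29e-09). At 12 h they stood near their 0 h level, Col4a5 at 7840 and 9948 (-0.06, adjusted p 0.72) and Col4a6 at 3348 and 3139 (-0.32, adjusted p 0.00704; -0.19 without EV 0 h replicate 1 and -0.28 without serum 12 h replicate 2, neither passing). The Col4a1 to Col4a5 ratio was 1.49 and 1.93 at 0 h and 16.3 and 23.5 at 6 h.

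Of the 12 other collagens 5 rose and 0 fell at 2 h, and 3 rose and 6 fell at 12 h. Col6a3 rose by 1.53, 1.06 and 0.26, while Col6a1 had 0.43, -0.15 and -0.56 and Col6a2 0.62, 0.02 and -0.50, the last -0.30 without serum 12 h replicate 1. The large chain of collagen VI thus did not follow the 2 small ones as it did under E2F1. The small rises at 2 h depended on scaling, with Col6a1 at -0.21 under quantile normalization. Col17a1, a collagen of hemidesmosomes, rose from 234 and 258 to 801 and 757 at 6 h (1.66, adjusted p 8.1e-06). Col22a1 went from 116 and 142 to 31 and 9 at 6 h (-2.85, adjusted p 1.86e-06), low values with a wide spread. Col20a1 fell at 12 h, from 300 and 317 to 90 and 81 (-1.84, adjusted p 1.14e-06), and Col18a1 fell at 6 and 12 h (-1.43 and -1.48). Col8a1, a short-chain collagen of vessel walls, rose at 12 h from 4479 and 4867 to 7915 and 6787 (0.65, adjusted p 0.000133). Col12a1 was called at all 3 times (0.90, -0.77 and -0.89), but its EV 0 h libraries were 14756 and 6639. Without EV 0 h replicate 1 its 6 and 12 h changes were -0.20 and -0.31, and without EV 0 h replicate 2 its 2 h change was 0.32, none of which passed. Without EV 0 h replicate 2 its 6 and 12 h changes were -1.35 and -1.47, and without EV 0 h replicate 1 its 2 h change was 1.47. The 6 h change did not pass without serum 6 h replicate 2 (-0.63), nor the 12 h change without serum 12 h replicate 2 (-0.82).

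Among the laminins, Lamc1, the γ1 chain shared by most trimers, made an early peak: 10057 and 8829 at 0 h, 29956 and 28364 at 2 h, 13561 and 13068 at 6 h and 11096 and 10935 at 12 h. Only the 2 h libraries lay far from the others, at 1.63 (SE 0.0903, adjusted p 2.09e-11). Against the 2 h doxycycline libraries Lamc1 had 1.48 (adjusted p 1.07e-10). Lamb2 fell at each time, from 11064 and 8926 to 6424 and 6538, 7159 and 6414, and 5175 and 6027 (-0.62, -0.55 and -0.83, adjusted p of at most 6.18e-05). All 6 serum libraries were below both 0 h libraries, opposite to the E2F1 line. Lama2 counted 137 and 96 before serum and 40 and 17 at 12 h (-2.09, adjusted p 5.49e-05). Its 2 h rise of 1.40 was 0.03 against the 2 h doxycycline libraries (adjusted p 0.947). It shares 631 exonic bases with Gm48084 on the other strand. Lama4 fell at 12 h (-0.87), but EV 0 h libraries of 7385 and 4291 left it uncertain: without EV 0 h replicate 1 it had -0.48 and did not pass.

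Of the lysyl oxidases, Loxl4 rose at each time (0.56, 0.71 and 0.98) and Loxl1 fell (-0.46, -0.36 and -0.28). The 2 h value of Loxl4 was 0.19 with equal totals, which did not pass, and against the 2 h doxycycline libraries it was -0.05 (adjusted p 0.781). Against the 2 h doxycycline libraries Loxl1 had -0.29 (adjusted p 0.0292), with -0.82 to -0.22 over the alternative fits. Without EV 0 h replicate 1 the values of Loxl1 were -0.28, -0.18 and -0.10, and the latter 2 did not pass. Its 6 h fall was also lost without serum 6 h replicate 1 (-0.30), and its 12 h fall without serum 12 h replicate 1 (-0.23) or 2 (-0.32), while without EV 0 h replicate 2 that value was -0.46. Lox had 0.38, 0.28 and 0.11 with adjusted p of 0.133, 0.272 and 0.687, and its 6 h libraries were far apart at 104801 and 195680. Fbln2, a fibulin of elastic fibres and basement membranes, doubled and stayed up: 43260 and 36533 at 0 h, 92579 and 95884 at 2 h, 85863 and 81277 at 6 h and 81869 and 84650 at 12 h. No library of serum overlapped the others (1.25, 1.07 and 1.07, adjusted p of at most 4.75e-08). Fbn1 rose most at 6 h, from 7902 and 7126 to 20217 and 20100 (1.43, adjusted p 7.62e-09). Fbn2 went from 141 and 168 to 31 and 34 at 2 h (-2.21, adjusted p 3.15e-05) and was at 106 and 224 at 6 h. Fbln5 fell slightly at 2 h (-0.27, adjusted p 0.0115) and had -0.04 and -0.07 later. The 2 h fall was -0.20 without EV 0 h replicate 1 and -0.24 without serum 2 h replicate 1, neither passing. Its 2 h serum libraries, at 28140 and 29056, overlapped those of 2 h doxycycline, at 28591 and 32455. Fn1 stood at 277202 and 319775 at 0 h, rose to 397607 and 440006 at 2 h (0.49, adjusted p 0.00288) and was lower at 12 h, at 213708 and 216322 (-0.47, adjusted p 0.00465). Under equal totals the 2 h value was 0.12 and did not pass, and under quantile normalization the 12 h value was -0.24 and did not pass.

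How far E2F1 and serum moved these genes alike was compared at 12 h, where the 2 series share no library. Of the 31 genes that fell with E2F1, 10 fell with serum (32.3% of the E2F1 falls and 71.4% of the 14 serum falls). They were Col3a1, Col5a3, Col4a6, Col6a1, Col6a2, Col18a1, Col22a1, Lama4, Loxl1 and Fn1. Another 10 rose with serum (32.3% of the E2F1 falls and 76.9% of the 13 serum rises), among them Col1a1, Col5a1, Col4a1, Fbln2, Fbn1 and Loxl3, and 11 did not pass with serum. Of all 40 genes 35% fell and 32.5% rose with serum and 77.5% fell with E2F1, so these overlaps were near the call rates themselves. Among the 10 that rose with serum, Col5a1, Fbn1 and Lamc1 did not pass against the EV doxycycline libraries of 12 h. Col5a1 stood at 31501 to 48551 with serum against 32430 to 36517, and Fbn1 at 9464 to 10403 against 8778 to 10356. Lamc1 stood at 10935 to 11096 against 11248 to 12786. The others that rose, and the 10 that fell in both series, passed there in the same direction. Lamb2, the single E2F1 rise, fell with serum. The difference of the 2 changes was tested directly, and 5 genes were higher and 20 lower with E2F1 at 12 h, beside 48.8% of all genes (25% higher, 23.8% lower). Col11a1 (-1.92), Col17a1 (-1.82), Col1a1 (-1.55), Col4a1 (-1.50), Loxl3 (-1.48) and Fbn2 (-1.58) were the 6 lowest, and Col3a1 (2.32), Lamb2 (1.68), Lama2 (1.51), Col20a1 (1.41) and Col5a3 (0.75) were higher. Col3a1 therefore fell in both, but further with serum by 2.32 on the log2 scale (SE 0.27, adjusted p 1.83e-06). Fbn2 did not pass without EV 0 h replicate 1 (-1.46) or serum 12 h replicate 2 (-0.96). Lama2 did not pass without E2F1 12 h replicate 1 (1.35), EV 0 h replicate 1 (1.26) or serum 12 h replicate 2 (0.92), nor Col5a3 without E2F1 0 h replicate 2 (0.61), E2F1 12 h replicate 2 (0.62), EV 0 h replicate 1 (0.61) or serum 12 h replicate 1 (0.66). For Fn1 the difference was 0.09 (95% interval -0.303 to 0.483). At 6 h 5 were higher and 17 lower, beside 57.9% of all genes (30.3% higher, 27.6% lower), with Col22a1 (2.31), Col3a1 (1.73), Col4a6 (0.95), Lamb2 (0.88) and Col4a5 (0.75) higher; Col22a1 had 1.47 without serum 6 h replicate 2. The plot of the 12 h changes against each other shows where each gene lay.

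**Figure D4:**
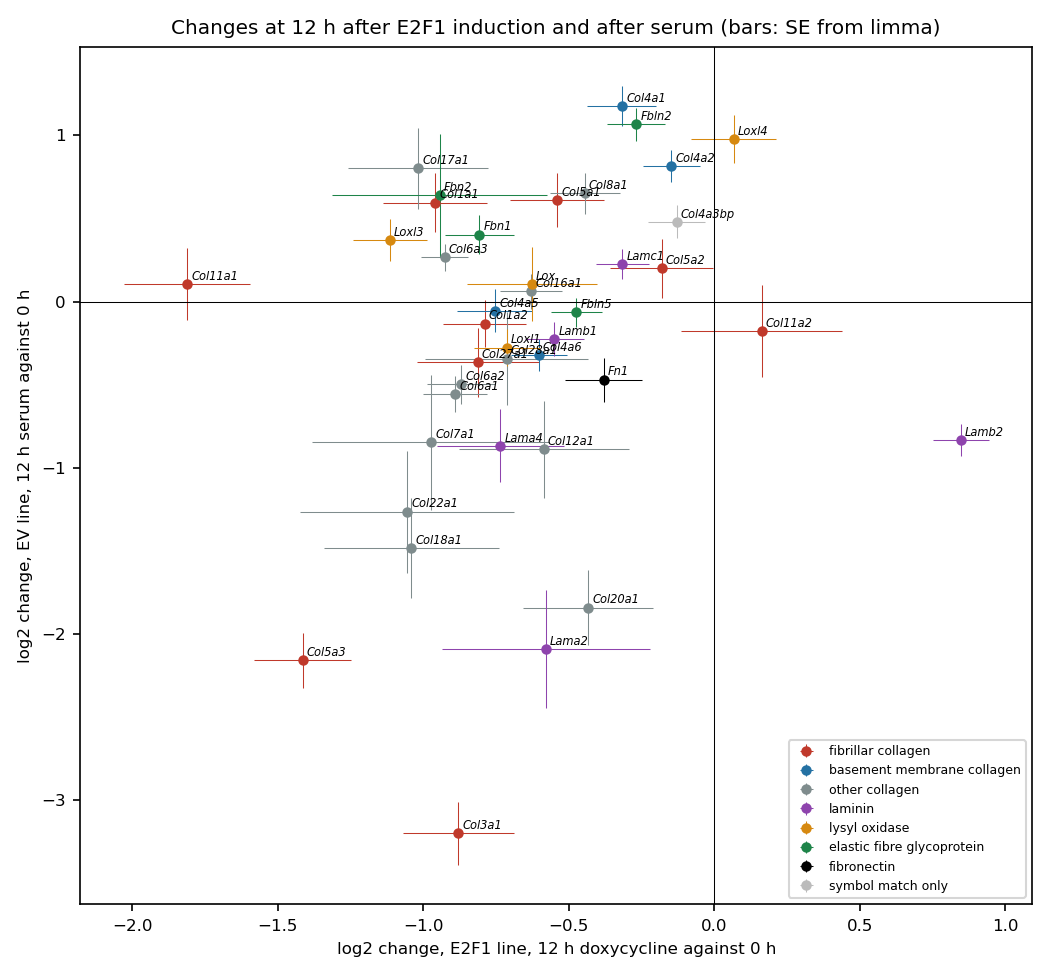
Log2 change at 12 h of serum (EV line) against that at 12 h of E2F1 induction, 1 point per gene of the 40. Lamb2 lies to the right and below (0.85 and -0.83), Col1a1 and Col4a1 to the left and above, and Col3a1 at the bottom (-0.88 and -3.20).

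The tables of changes that the authors deposited list only genes with large changes. The authors' deposited table for 12 h of E2F1 held 510 genes and 0 of the 40, and those for 2 and 6 h held 0 as well. For serum, the authors' deposited tables list Col27a1 (3.48), Col4a1 (2.38) and Fbn2 (-2.24) at 2 h. At 6 h the authors' deposited table has Col4a1 (2.47), Col22a1 (-2.87) and Col3a1 (-2.19), and at 12 h Col3a1 (-3.17), Col5a3 (-2.14) and Lama2 (-2.08). In the EV line the authors' deposited table for 2 h of doxycycline has Col11a1 (2.55).

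The partners of these genes were counted whole in 6 lists that hold none of the 40. Over all genes, 31.8% rose and 29.7% fell at 12 h of E2F1 (median -0.02), and with serum 37.5% and 33.5% at 2 h, 36.5% and 31% at 6 h, and 36% and 29.7% at 12 h (medians 0.03, 0.03 and 0.05). Of 21 measured genes of collagen maturation, which hydroxylate, fold and trim procollagen, 4 rose and 8 fell at 12 h of E2F1, while with serum 11 rose and 3 fell at 2 h, and 10 rose and 3 fell at 12 h. Against doxycycline at the same 2 h, 5 were higher and 4 lower, and at 12 h 10 and 3. P3h1, a prolyl 3-hydroxylase, had one of the largest E2F1 falls of any partner (-1.56, adjusted p 1.79e-08). Of 9 elastic fibre partners 1 rose and 5 fell with E2F1 at 12 h, and serum had 5 higher and 4 lower at 6 h, with Ltbp2, a latent TGF-β binding protein, at 3.71 (adjusted p 5.55e-12). Of 9 basement membrane partners 2 rose and 4 fell with E2F1, Npnt, an integrin ligand, rising by 1.40 (adjusted p 6.79e-09). Nid2, the linker nidogen 2, fell most with serum at 6 h (-2.99, adjusted p 4.56e-10).

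Small leucine-rich proteoglycans, which coat collagen fibrils, went down in both series: 6 of 7 fell at 12 h of E2F1 (median -0.94) and 6 of 7 at 12 h of serum (median -2.04), where 1 rose. In this list 5 of 7 were already higher in the E2F1 line at 0 h (median 1.61). Ogn, Aspn and Prelp fell most with serum at 12 h (-3.88, -3.63 and -3.10), and Fmod with E2F1 (-1.54, adjusted p 0.0112). Of 11 matricellular proteins, which bind matrix and cells without building fibrils, 0 rose and 7 fell at 12 h of E2F1, and 7 rose and 2 fell at 2 h of serum (median 2.57), led by Ccn2 (6.35) and Ccn1 (4.56). Against the 2 h doxycycline libraries, 6 were higher and 2 lower. Of 17 matrix receptors 5 rose and 5 fell at 12 h of E2F1, close to the shares over all genes. Itga1 and Itga9, integrin α chains, were the highest there (1.98 and 1.88) and Itga11, the α chain of a fibrillar collagen receptor, the lowest (-1.59). Serum gave 14 receptor rises and 1 fall at 2 h, with Itgb3 at 4.84 and Itgb8 at -2.81, and against doxycycline at 2 h 11 were higher and 2 lower. In the test of the line difference at 12 h, collagen maturation had 3 higher and 8 lower. Elastic fibre partners had 0 and 4, basement membrane partners 1 and 5, and proteoglycans 0 and 5. Matricellular proteins had 1 and 4 and receptors 4 and 2, beside 27.3% and 23.3% of all genes. With doxycycline alone in the EV line at 12 h, 1 matricellular gene rose and 2 fell (0.749% and 3.42% of all genes). The other lists had 0 called there.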

How the data were processed

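Polyadenylated RNA of 22 libraries was sequenced as paired reads. The submitters' processing notes name FastQC, Trimmomatic, HISAT2, featureCounts, DESeq2 and mm10, without versions or settings. The authors deposited 1 table of normalized counts rounded to whole numbers, treated here as a score because its scaling is not given in the sources used here, and tables of log2 fold changes with adjusted p-values per comparison (per the file headers). Raw counts were not analysed here, so counting error could not be separated from other spread.

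Values were taken as log2(normalized count + 1). All 22 libraries were fitted with limma 3.58.1 (limma-trend, R 4.3.3) with 11 group means and 11 residual degrees of freedom. P-values were adjusted by Benjamini-Hochberg over 11208 genes, with 0.05 as the threshold. A filter of at least 10 in at least 2 libraries removed 0 genes. Fold changes on this scale understate those of low genes. Because the fit pools the spread over groups, a group left with 1 library is assumed to vary like the others. In simulated data for the 12 h E2F1 comparison (11208 genes), 89 of 100 genes changed by 1 log2 unit and 98 of 100 changed by 2 were called, with 7 unchanged genes called. All other genes were left unchanged there and the noise was independent between libraries, whereas 61.5% of genes were called in the data. These rates therefore describe the simulated setting only.

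The 40 genes, their families and the partner lists were chosen with earlier results of these data known. Any of the 40 could be named; values per library were given to the largest changes of each family and to a set of main chains, and partner genes were named as at most 3 rises and 3 falls per comparison. Positions and exon overlaps are from GENCODE M21 (GRCm38). Of 11208 gene identifiers, 10977 matched it with the same version. Alternatives were another pseudocount, other filters, quantile normalization, equal totals, a replicate block, only the groups compared, a 2-fold minimum and leaving out each library; leaving out the 2 h libraries and a block by line were added after seeing the data.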

Additional observations from a re-analysis of the deposited data

Results flagged for a closer look

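These genes changed differently with doxycycline in the E2F1 line and in the EV line, by limma's test of the difference itself (log2 change in the E2F1 line minus that in the EV line). At 6 h the difference was -0.92 for Col11a1, -0.97 for Col17a1, -0.63 for Col5a3, -0.47 for Col6a3, -0.55 for Col8a1, -0.44 for Lamb1 and 0.59 for Col4a3bp. Of these, Col11a1 and Col5a3 did not pass in the fit of only the groups compared. Over the alternative fits Col11a1 ran from -1.23 to -0.61, Col17a1 from -1.22 to -0.73 and Col5a3 from -0.87 to -0.40. Col8a1 ran from -0.73 to -0.40 and Lamb1 from -0.64 to -0.30.

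At 12 h the fibrillar collagens with a difference were Col1a1 (-0.92), Col1a2 (-0.79), Col3a1 (-0.98), Col5a1 (-0.97), Col5a3 (-1.67), Col11a1 (-1.39) and Col27a1 (-1.04). Of the collagen IV chains, Col4a5 had -0.98 and Col4a6 -0.69. The other collagens were Col6a1 (-0.91), Col6a2 (-0.88), Col6a3 (-0.97), Col16a1 (-0.72), Col17a1 (-1.04) and Col18a1 (-1.47). Among the laminins, Lama4 had -1.33, Lamb1 -0.66, Lamc1 -0.66 and Lamb2 0.53. Loxl1 had -0.83, Loxl3 -0.82, Fbln2 -0.45, Fbln5 -0.44 and Fbn1 -1.15. Col1a2 (-0.21) and Fbln2 did not pass under quantile normalization, nor Col17a1 in the fit of only the groups compared. Over the alternative fits Col17a1 ran from -1.39 to -0.69, Col18a1 from -1.98 to -0.97, Col27a1 from -1.44 to -0.65 and Fbln2 from -0.57 to -0.29.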

How the results depend on the processing

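With n = 2 libraries per group and no raw counts, the precision of single genes is low, and small changes depended on scaling. Under quantile normalization, serum at 2 h against 0 h turned lower for Col6a1 (-0.21), Lamb1 (-0.15) and Loxl3 (-0.067). Serum against doxycycline at 2 h turned lower for Col16a1 (-0.28), Col6a1 (-0.46), Col6a2 (-0.16), Lamb1 (-0.12) and Lox (-0.078), and at 6 h for Lamc1 (-0.11). With equal totals, serum at 2 h turned lower against 0 h for Loxl3 (-0.063), and against doxycycline for Col16a1 (-0.13), Col4a3bp (-0.0016), Col6a1 (-0.10) and Fn1 (-0.020).

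Counts of the 40 genes called moved by over 1.5 times in these cases. The shares over all genes were not counted for the alternative fits, here or below. With a 2-fold minimum they were 1 and 6 for E2F1 at 6 and 12 h, 2 and 0 for EV doxycycline at 2 and 12 h, and 11, 13 and 8 for serum at 2, 6 and 12 h. They were then 9, 11 and 11 for serum against doxycycline at these times, 0 and 7 for the line difference at 6 and 12 h, 13 and 15 for E2F1 minus serum, and 5 between the lines at 0 h. For E2F1 at 2 h quantile normalization gave 1 and the fit of only the groups compared 5. For EV doxycycline at 12 h the latter and the fit without the 2 h libraries gave 0. For the line difference at 6 h quantile normalization gave 12. Between the lines at 0 h, a mean of at least 500 and the fit of only the groups compared gave 7 each. Without the 2 h libraries, E2F1 had 14 at 6 h and 30 at 12 h.

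Leaving out 1 library gave 0 to 1, 10 to 12 and 22 to 27 calls for E2F1 at 2, 6 and 12 h, 1 to 6, 0 and 0 to 3 for EV doxycycline, and 24 to 25, 20 to 22 and 20 to 27 for serum. It gave 18 to 21, 20 to 22 and 21 to 25 for serum against doxycycline, 3 to 11 and 22 to 26 for the line difference at 6 and 12 h, 20 to 22 and 22 to 27 for E2F1 minus serum, and 6 to 11 between the lines. The 1 call at 2 h of E2F1 came without E2F1 0 h replicate 1.

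With the replicate number as a block, E2F1 had 0, 17 and 33 calls, EV doxycycline 9, 0 and 1, serum 26, 23 and 28, and the lines at 0 h 13. Over 55 pairs of groups the correlation of the deviations of same-numbered libraries ran from -0.277 to 0.455 (median 0.0314), and 18 were over 0.1. Within a line and outside 2 h, same-numbered doxycycline libraries deviated together: 0.142 to 0.357 in the E2F1 line and 0.303 to 0.455 in the EV line. Doxycycline pairs that include 2 h did not (-0.277 to -0.0137), so the numbers pair some times, as a hint from the data only. A block by line, added after seeing the data, gave 0, 17 and 33 calls for E2F1, 8, 0 and 1 for EV doxycycline, 27, 23 and 29 for serum, 8 and 26 for the line difference and 11 between the lines. It ended the call of Col7a1 at 6 h of E2F1 (-0.99) and of no other gene named.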
